A study of Homo sapiens with 6 samples.

Results

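The HOXB cluster is the run of HOXB genes on the long arm of human chromosome 17. The members were taken by symbol and are the 9 HOXB genes HOXB2, HOXB3, HOXB4, HOXB5, HOXB6, HOXB7, HOXB8, HOXB9 and HOXB13, among 35410 genes listed. The RNA is described as coming from SEM, a cell line of precursor B cell leukemia of proB type that carries the KMT2A::AFF1 fusion. A doxycycline-inducible vector was introduced, either empty (SEM::mock) or holding the zinc finger transcription factor EGR3 (SEM::EGR3), and both lines received 1 µg/mL doxycycline for 48 h. Each line was sampled in biological triplicate, giving 3 libraries of SEM::mock and 3 of SEM::EGR3. MACE-seq was used, which counts cDNA fragments from the 3′ ends of polyadenylated transcripts. Whether a line was 1 clone is not given in the sources used here, so EGR3 and any other difference between both lines cannot be told apart.

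HOX genes encode homeodomain transcription factors that set position along the body axis, and they lie in 4 clusters in the order in which they are used. In blood formation, HOX genes are active in stem and progenitor cells and are turned down as cells mature. HOX proteins bind DNA together with PBX and MEIS proteins of the TALE class. Trithorax complexes such as those of KMT2A keep HOX chromatin active, and Polycomb complexes silence it. In leukemias with a KMT2A fusion, genes of the HOXA cluster are well known targets of the fusion protein.

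Counts of listed genes per library ran from 5286115 to 6181388 in SEM::mock and from 7293092 to 15106018 in SEM::EGR3. EGR3 itself was counted 8, 10 and 6 times in SEM::mock and, in SEM::EGR3, 9768, 4952 and 5557 times. The identity of the cells was checked with marker lists. Of 12 B lineage markers, 8 could be tested and all 8 were higher in SEM::EGR3, beside 36.5% of all tested genes. These 8 passed the filter on low counts only through SEM::EGR3, so their direction was set by the filter. Where at least 10 counts were required in every library, 0 were called higher. The summed level of the list ran from 2.64 to 5.86 CPM, counts scaled to a common library total, in SEM::mock and from 495 to 522 CPM in SEM::EGR3. The B cell factor EBF1 had 0 counts in all SEM::mock libraries, as had RAG2, DNTT and BLNK, of which no SEM::EGR3 library had more than 2 counts, and PAX5 had 1, 1 and 2, so the proB label is not borne out by these markers in SEM::mock. Of 15 erythroid and megakaryocyte markers listed, 12 were tested, 4 were higher and 8 lower in SEM::EGR3, with summed levels of 4892 to 5188 CPM in SEM::mock and 6118 to 6372 CPM in SEM::EGR3. The defining genes GATA1 (335 ± 9.65 and 285 ± 8.68 CPM, SD, n = 3) and HBG2 (2333 ± 38.1 and 945 ± 30.6 CPM) fell but were present in both lines. The globin genes HBA1 (513 ± 25.6 and 1491 ± 35.3 CPM), HBA2 (212 ± 24.7 and 1076 ± 58.4 CPM) and HBZ (861 ± 63.2 and 2108 ± 92.9 CPM) rose. AHSP and GP9 were at 0 in SEM::mock. Of 7 myeloid markers listed, 2 rose, 1 fell and 1 did not pass, with sums of 138 to 146 and 179 to 180 CPM, and MPO was at 0 in SEM::mock. Of 5 T cell markers, 1 rose and 2 fell, with sums of 59.3 to 64.6 and 8.22 to 10.5 CPM, and CD5 was at 0 in SEM::mock. Of 6 fibroblast and epithelial markers, 2 rose and 1 fell, with sums of 52.8 to 56.2 and 80.0 to 82.2 CPM, and COL3A1 was at 0 in every library. The part of these marker differences in the HOXB values was not tested. In these bulk samples, fewer cells of a type and less RNA per cell cannot be told apart.

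Along the whole tested run from HOXB2 to HOXB9, the HOXB genes had lower levels in SEM::EGR3. All 8 members with enough counts to be tested fell, to between 24.6% and 33.9% of their SEM::mock fit, and the ranges of the libraries did not overlap for any of the 8. HOXB13, which lies apart from the other members, was at the edge of detection. The test was edgeR's quasi-likelihood test over 15465 genes with Benjamini-Hochberg adjustment, and a gene was called at an adjusted p under 0.05. The background was high in this comparison, since 68.5% of all tested genes were called, 32.0% as lower and 36.5% as higher. With a log2 fold change of -1 or below added to the call, 8.50% of tested genes were called, and all 8 members were among them. Ranges lay apart in 70.1% of tested genes, and in the lower direction in 32.6%. The median log2 fold change was -1.71 over the 8 tested members and 0.03 over all tested genes.

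**Figure D1:**
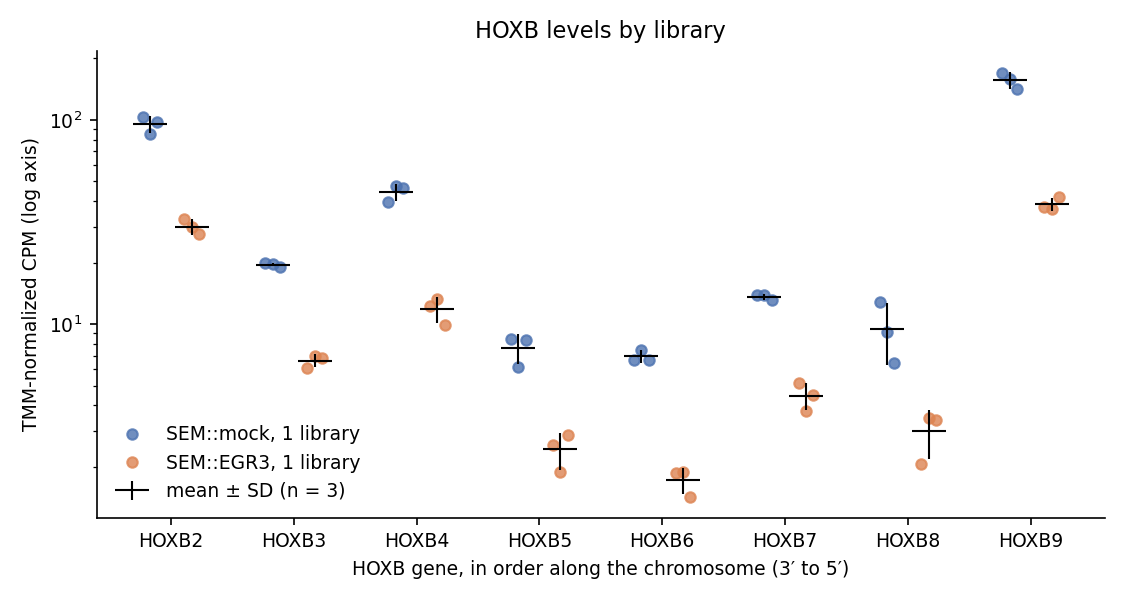
Level of each tested HOXB gene in TMM-normalized CPM (log axis) in the 3 SEM::mock and 3 SEM::EGR3 libraries, with mean and SD. Genes are in chromosomal order. In each of the 8 genes all SEM::EGR3 points lie below all SEM::mock points, and HOXB9 and HOXB2 are the highest in both lines.

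The members lie on the minus strand, with HOXB2 the most 3′ and HOXB13 the most 5′ of these 9 genes, within chr17:48540894-48729178 of GRCh38. Levels are given as CPM of listed genes after TMM scaling. As 1 fragment stands for the 3′ end of a transcript, no division by length was made when genes were compared. HOXB2 (ENSG00000173917, chr17:48540894-48544989) helps pattern the hindbrain and is among the HOXB genes used in early blood progenitors. Its level was 103, 85.1 and 97.5 CPM in the SEM::mock libraries and 32.8, 29.8 and 27.5 CPM in the SEM::EGR3 libraries. The lowest SEM::mock library was thus far above the highest SEM::EGR3 library. The difference was a log2 fold change of -1.65 (SE 0.08; edgeR's quasi-likelihood test, adjusted p = 3.79e-15), or a level 3.14-fold lower (95% interval 2.79 to 3.52).

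HOXB3 (ENSG00000120093, chr17:48548870-48604912), which acts with HOXB4 in the upkeep of blood stem cells, varied little between libraries. It stood at 19.9, 19.7 and 19.1 CPM in SEM::mock and at 6.10, 6.98 and 6.82 CPM in SEM::EGR3. The SD within SEM::mock was 0.386 CPM, small beside the gap between the lines. The log2 fold change was -1.58 (SE 0.13, edgeR adjusted p = 9.15e-11). Its annotated span covers HOXB4, HOXB5 and most of HOXB6, and its exons share 159 bp with HOXB4 and 433 bp with HOXB6 on the same strand, so part of the counts could not be told apart between them, depending on the counting rule.

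HOXB4 (ENSG00000182742, chr17:48575513-48580111) is the HOXB gene best known for expanding blood stem cells when it is overexpressed. It was at 39.6, 47.4 and 46.3 CPM in SEM::mock and at 12.2, 13.3 and 9.91 CPM in SEM::EGR3. Each SEM::EGR3 library was below each SEM::mock library. The level was 3.76-fold lower (95% interval 3.23 to 4.39; log2 fold change -1.91, SE 0.11, edgeR adjusted p = 5.25e-14).

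HOXB5, HOXB6, HOXB7 and HOXB8 form the middle of the cluster and were the lowest of the tested members in both lines. HOXB5 (ENSG00000120075, chr17:48591257-48593961), a marker of long-term blood stem cells in mice, was at 8.45, 6.17 and 8.40 CPM in SEM::mock and at 2.57, 1.88 and 2.86 CPM in SEM::EGR3. HOXB6 (ENSG00000108511, chr17:48595751-48604992), known from erythroid and myeloid progenitors, was at 6.69, 7.51 and 6.64 CPM in SEM::mock and at 1.86, 1.88 and 1.43 CPM in SEM::EGR3. Both genes separated the lines with no overlap, from as few as 13 counts in a library. Their log2 fold changes were -1.61 (SE 0.22, edgeR adjusted p = 4.13e-07) for HOXB5 and -1.99 (SE 0.22, edgeR adjusted p = 2.35e-08) for HOXB6.

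HOXB7 (ENSG00000260027, chr17:48607227-48633572), often overexpressed in solid tumors, was at 13.9, 13.8 and 13.1 CPM in SEM::mock and at 5.14, 3.76 and 4.51 CPM in SEM::EGR3. It had the smallest difference of the tested members, a log2 fold change of -1.56 (SE 0.16, edgeR adjusted p = 4.28e-09). Even so, 3.52% of all tested genes had a log2 fold change as low or lower. HOXB8 (ENSG00000120068, chr17:48611377-48614939), which can block the maturation of myeloid progenitors when overexpressed, was at 12.8, 9.18 and 6.45 CPM in SEM::mock and at 2.06, 3.49 and 3.41 CPM in SEM::EGR3. This was the widest spread of the tested members, as its highest SEM::mock library was 1.99 times its lowest. The lines did not overlap, and the log2 fold change was -1.77 (SE 0.24, edgeR adjusted p = 5.45e-07).

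HOXB9 (ENSG00000170689, chr17:48621159-48626356), a posterior HOX gene that patterns the thoracic skeleton, was the most abundant member. It was at 170, 159 and 141 CPM in SEM::mock and at 37.5, 36.6 and 41.8 CPM in SEM::EGR3, so the lines were widely apart. It had the greatest difference of the tested members, at 4.07-fold lower (95% interval 3.66 to 4.52; log2 fold change -2.02, SE 0.07, edgeR adjusted p = 8.58e-18). In SEM::mock, 92.2% of tested genes had a lower mean level than HOXB9, and in SEM::EGR3 66.8% had. For HOXB2 these shares were 86.1% and 60.1%, and for HOXB6, the lowest tested member, 31.2% and 4.18%.

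HOXB13 (ENSG00000159184, chr17:48724763-48729178), a gene of the prostate and hindgut, lies 98406 bp beyond HOXB9. It was counted 2, 0 and 2 times in SEM::mock and, in SEM::EGR3, 0, 0 and 0 times, and the ranges met at 0. The 4 counts among 17240436 gave 0.232 CPM (without TMM scaling) in SEM::mock (95% exact Poisson interval 0.0632 to 0.594). The SEM::EGR3 libraries together had 0 of 31246735 counts. A limit set at 3 counts in that total is 0.0960 CPM on the same scale, and it is not the same kind of limit as the interval for SEM::mock. Both figures cover counting error only. HOXB13 did not pass the filter on low counts, and without that filter its adjusted p was 0.0564 (edgeR's quasi-likelihood test), so a difference was not detectable at this depth.

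The order of the levels was the same in both lines. It ran HOXB9, HOXB2, HOXB4, HOXB3, HOXB7, HOXB8, HOXB5, HOXB6 and HOXB13. Neighbours in this order had ranges apart within each line, except HOXB8 with HOXB5 and HOXB5 with HOXB6, which overlapped in each line. The summed level of the cluster was 375, 348 and 339 CPM in SEM::mock and 100.1, 97.7 and 98.3 CPM in SEM::EGR3. The 3 SEM::EGR3 sums were thus nearly equal, and far below the SEM::mock sums.

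**Figure D2:**
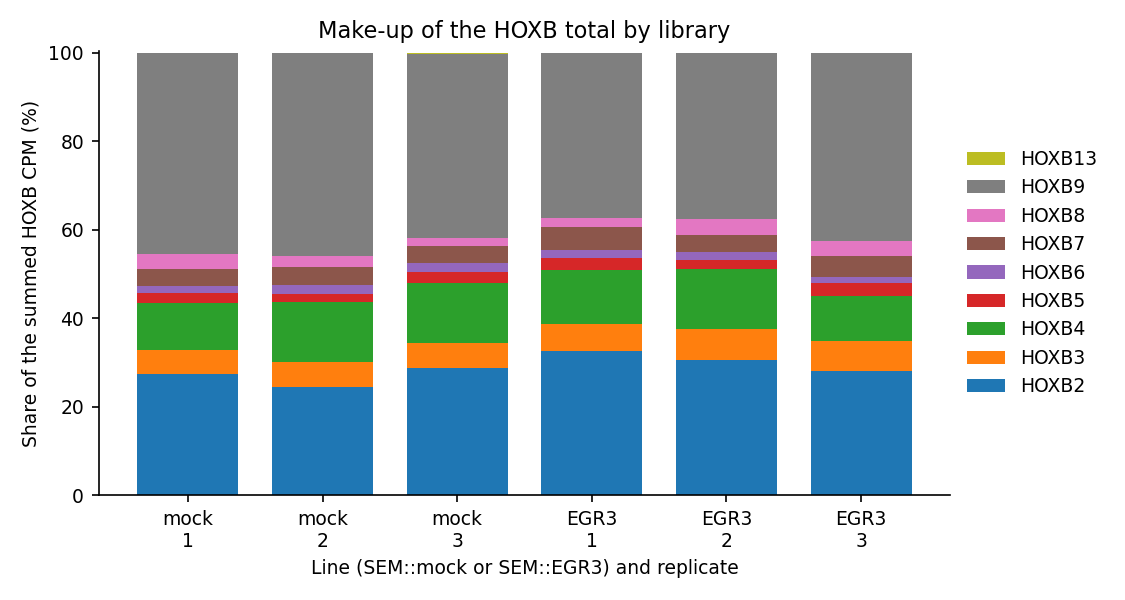
Share (%) of each HOXB gene in the summed HOXB CPM of a library, for the 3 SEM::mock and the 3 SEM::EGR3 libraries. HOXB9 and HOXB2 together take from 68.0% to 72.9% of every bar, and HOXB13 is too low to be seen.

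The make-up of this total differed little between the lines. HOXB2 and HOXB9 together made 70.2% to 72.9% of it in SEM::mock and 68.0% to 70.5% in SEM::EGR3. HOXB9 alone made 44.2% ± 2.26 (SD, n = 3) in SEM::mock and 39.1% ± 2.95 in SEM::EGR3, and these ranges overlapped. Among the 9 shares, only that of HOXB3 had ranges apart, at 5.53% ± 0.203 in SEM::mock and 6.73% ± 0.557 in SEM::EGR3. The shares of a library depend on each other, and with 3 libraries per line a difference in this share was not tested. The ratio of HOXB9 to HOXB2 was 1.65, 1.87 and 1.45 in SEM::mock and 1.14, 1.23 and 1.52 in SEM::EGR3. These ratios overlapped (exact two-sided permutation test, p = 0.20, n = 3 per line; the smallest p possible is 0.10), although the 95% intervals of the log2 fold changes of HOXB9 and HOXB2 did not meet.

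Other transcripts of the cluster were then examined. GENCODE release 29 places 26 genes in or across the interval from HOXB2 to HOXB13, of which 17 are not members. Of these 26, 18 were listed and 10 could be tested, among them the antisense transcript HOXB-AS1, which starts inside HOXB2 and runs into HOXB3 on the plus strand. HOXB-AS1 was counted 64, 54 and 38 times in SEM::mock and, in SEM::EGR3, 58, 25 and 38 times, or 9.23 ± 1.93 and 3.75 ± 0.415 CPM. Besides it and the members, the 1 gene tested was the pseudogene RPL9P28 (log2 fold change 0.01, edgeR adjusted p = 0.897). Scaled for depth, HOXB-AS1 was lower in each SEM::EGR3 library (log2 fold change -1.30, SE 0.19, edgeR adjusted p = 1.78e-06). Its exons share 87 bp with HOXB2 and 374 bp with HOXB3 on the opposite strand. The use of strand in the counting is not given in the sources used here, so reads of these antisense pairs cannot be told apart. The same holds for HOXB-AS3, whose exons share 425 bp with HOXB6, 77 bp with HOXB3 and 73 bp with HOXB5.

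HOXB-AS3 was counted 7, 7 and 4 times in SEM::mock and, in SEM::EGR3, 19, 2 and 4 times, too few to be tested, and its levels overlapped. HOXB-AS4 had at most 1 count in a SEM::mock library and at most 2 in a SEM::EGR3 library. On the same strand, the exons of HOXB4 share 482 bp with the sense intronic transcript AC103702.1 and 110 bp with MIR10A, so a like limit holds for HOXB4. HOXB7, HOXB8, HOXB9 and HOXB13 share no exonic base with another annotated gene, so their counts are free of this limit.

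The start region of HOXB-AS1 is shown because this antisense transcript fell together with the HOXB genes around it. This start is that of RefSeq. It lies inside the GENCODE gene, which begins at chr17:48543551, so the window is not upstream of the whole counted gene. The RefSeq sequence (GRCh38.p14, chr17:48544101-48544400, plus strand), 250 bases before to 50 after the RefSeq start, has its CpG steps in capitals.
HOXB-AS1 promoter: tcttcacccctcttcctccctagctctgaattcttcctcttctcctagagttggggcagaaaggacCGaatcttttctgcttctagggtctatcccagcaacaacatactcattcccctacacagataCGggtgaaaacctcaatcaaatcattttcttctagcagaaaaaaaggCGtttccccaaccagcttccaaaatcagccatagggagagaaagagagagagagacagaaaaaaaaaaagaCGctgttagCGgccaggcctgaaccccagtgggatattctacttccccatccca
It holds 5 CpG, and 70.4% of 35116 promoters of this length hold at least as many. None of CCAAT (in 34.6% of promoters), TATAAA (in 11.5%) and GGGCGG (in 45.0%) was found on either strand, which says only that these letters are not in this window.

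A pair of microRNA genes lies inside the spans of the members, and their mature strands are shown because each lies within the annotated span of a member that fell. The 3′ counts do not show whether the transcripts counted ran across these microRNA genes. Mature microRNAs are not polyadenylated and were not measured, so no level is given for either. The sequences are from RefSeq (GRCh38.p14), with the seed, bases 2 to 8, in capitals. MIR10A (mature strand at chr17:48579904-48579926, minus strand) lies in the spans of HOXB3 and HOXB4, and MIR196A1 (chr17:48632532-48632553, minus strand) in that of HOXB7.
hsa-miR-10a-5p: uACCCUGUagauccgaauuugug
hsa-miR-196a-5p: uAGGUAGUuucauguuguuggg
The seeds differ, so they make no shared family. As background, miR-196a is known to direct the cleavage of HOXB8 RNA at a site that pairs with it along nearly its whole length. This site was found in HOXB8 downstream of the coding end (chr17:48612770-48612791, minus strand, GRCh38).
HOXB8 site: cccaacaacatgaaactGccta
Of its 22 bases, 21 form Watson-Crick pairs with miR-196a-5p, and the base in capitals is a G opposite U. The log2 fold change of HOXB8, given above, was within the range of the other tested members. In the longest coding transcripts, a match to the miR-10a-5p seed was found once each in HOXB2, HOXB3 and HOXB5. A match to the miR-196a-5p seed was found once each in HOXB6, HOXB7 and HOXB13. The whole transcript was searched, coding part included, and no background rate was computed. These are matches of letters, and whether they are target sites was not tested.

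The decrease was then compared with the genes on either side of the cluster. Of a list of 14 flanking genes, 10 could be tested, of which 1 rose, 2 fell and 7 did not pass, with a median log2 fold change of -0.05. Next to HOXB13, CALCOCO2, 102 kb away, had 54.3 ± 3.19 CPM in SEM::mock and 51.3 ± 0.687 in SEM::EGR3 (log2 fold change -0.08, edgeR adjusted p = 0.303). ATP5MC1, 164 kb away, had a log2 fold change of -0.10 (edgeR adjusted p = 0.101). Both genes were chosen for naming after their values were seen, as the nearest tested genes on that side. Beyond them, IGF2BP1, which encodes an oncofetal RNA-binding protein and lies 268 kb from HOXB13, fell from 336 ± 19.1 to 109 ± 5.60 CPM (log2 fold change -1.62, SE 0.06, edgeR adjusted p = 1.05e-17). On the side of HOXB2, the nearest tested gene was SNX11, a sorting nexin gene 418 kb away, which rose (log2 fold change 0.46, edgeR adjusted p = 0.000899). Between SNX11 and HOXB2, SKAP1, 111 kb from HOXB2, was counted 3, 1 and 1 times in SEM::mock and, in SEM::EGR3, 5, 2 and 2 times, too few to be tested.

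**Figure D3:**
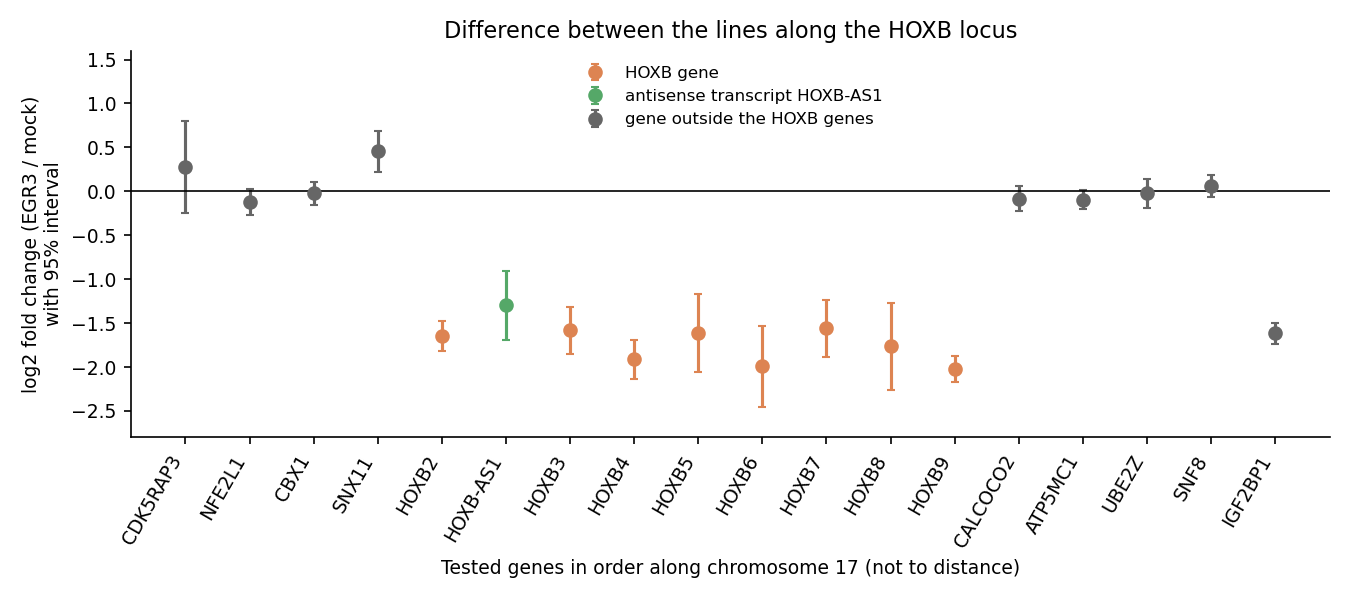
Log2 fold change (SEM::EGR3 over SEM::mock) with its 95% interval for the 8 tested HOXB genes, HOXB-AS1 and the 9 nearest tested genes of the flanking list, in order along chromosome 17 and not to distance. The 8 HOXB genes lie between -2.02 and -1.56, HOXB-AS1 at -1.30 and the genes next to them near or above 0, while IGF2BP1 lies at -1.62.

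The HOXB cluster was then set beside the other HOX clusters. Summed over the HOXB genes, SEM::mock had 354 ± 18.8 CPM and SEM::EGR3 98.7 ± 1.29 CPM (SD, n = 3). The summed HOXA level went the other way, from 25.1 ± 2.84 to 233 ± 10.8 CPM. HOXC (38.8 ± 2.21 and 26.2 ± 1.79 CPM) and HOXD (9.73 ± 1.03 and 6.56 ± 1.18 CPM) were low throughout. As a share of all HOX counts after scaling, HOXB made 82.0% to 83.6% in SEM::mock and 26.6% to 27.8% in SEM::EGR3, and HOXA 5.14% to 6.85% and 63.1% to 64.7%. The most abundant HOX cluster was thus HOXB in each SEM::mock library and HOXA in each SEM::EGR3 library, while the sum of all HOX genes was 428 ± 18.5 and 364 ± 12.3 CPM.

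**Figure D4:**
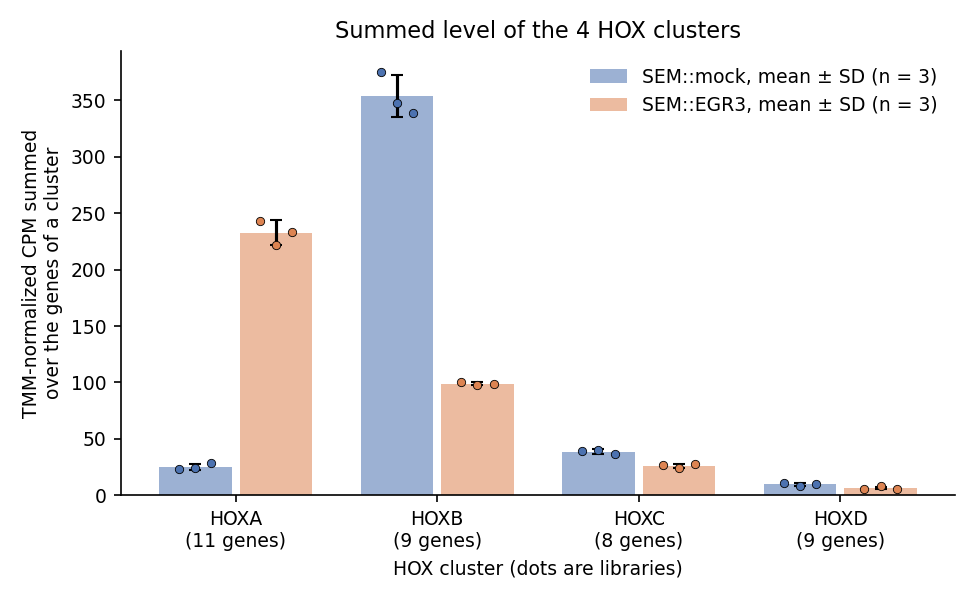
TMM-normalized CPM summed over the listed genes of each HOX cluster. Bars are means, error bars SD (n = 3) and dots libraries. HOXB stands at 354 in SEM::mock and 98.7 in SEM::EGR3, and HOXA at 25.1 and 233.

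Within HOXA, 6 of 11 genes could be tested and all 6 rose, beside 36.5% of all tested genes called higher. Some of these, HOXA7 and HOXA9 among them, passed the filter on low counts only through SEM::EGR3, so their direction was set by the filter. Where at least 10 counts were required in every library, 2 HOXA genes were called higher. HOXA7 was at 0 in all SEM::mock libraries, against counts of 1633, 706 and 887 in those of SEM::EGR3. Set against a floor of 3 counts per library, its level was at least 184-fold higher. HOXA9, the HOXA gene most tied to leukemia, was counted 1, 2 and 3 times in SEM::mock and, in SEM::EGR3, 825, 360 and 491 times. HOXA10 rose from 13.5 ± 1.15 to 61.6 ± 2.97 CPM. Of 8 HOXC genes listed, 5 were tested, of which 3 fell, 1 rose and 1 did not pass. HOXC9 fell from 18.3 ± 1.39 to 10.5 ± 0.493 CPM, HOXC12 from 5.75 ± 1.35 to 2.61 ± 0.612 CPM, and HOXC4 rose from 2.33 ± 0.214 to 5.52 ± 0.495 CPM. HOXC8 fell with overlapping ranges (log2 fold change -1.17, edgeR adjusted p = 0.00338), and its call was lost without SEM::mock replicate 2 (edgeR adjusted p = 0.191). Of 9 HOXD genes, 2 were tested, and HOXD13 fell from 6.43 ± 0.258 to 2.24 ± 0.737 CPM.

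The TALE genes, whose proteins bind DNA with HOX proteins, were 9 in number. Of these, 7 were tested, of which 4 rose and 3 fell, beside 68.5% of all tested genes called. PBX3 was counted 11, 7 and 5 times in SEM::mock and, in SEM::EGR3, 1058, 487 and 590 times, and rose (log2 fold change 5.58, SE 0.15, edgeR adjusted p = 2.52e-20). PBX3 was thus near the edge of detection in SEM::mock, and its libraries lay far apart between the lines. MEIS1, a partner of HOXA9 in leukemia, rose from 8.25 ± 0.976 to 47.0 ± 2.90 CPM, and PKNOX1 rose by a log2 fold change of 1.08 (SE 0.12).

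Genes of the chromatin regulators of HOX loci had smaller differences. Of 10 genes on the trithorax and KMT2A side, 4 rose, 3 fell and 3 did not pass, with a median log2 fold change of 0.04, beside 68.5% of all tested genes called. PSIP1, which tethers the KMT2A complex to chromatin, rose from 70.0 ± 5.09 to 119 ± 2.61 CPM, and the core subunits ASH2L (117 ± 3.12 to 66.0 ± 0.782 CPM) and DPY30 (65.5 ± 3.97 to 50.9 ± 4.49 CPM) fell. DOT1L, the H3K79 methyltransferase, had a log2 fold change of 0.18 (edgeR adjusted p = 0.0377), a call that 8 of 13 alternatives lost. KMT2A itself, named although it did not pass, had 50.1 ± 1.83 CPM in SEM::mock and 47.1 ± 3.56 in SEM::EGR3 (edgeR adjusted p = 0.385). These 3′ counts do not report the KMT2A::AFF1 transcript, which ends in AFF1. A transcript of the reciprocal fusion AFF1::KMT2A would end in KMT2A, so its counts could not be told apart from those of KMT2A.

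Of 17 Polycomb genes, 8 rose, 3 fell and 6 did not pass, with a median log2 fold change of 0.17, again beside 68.5% of all tested genes called. The call counts of these lists are thus close to the background. PHC2 rose from 79.5 ± 3.05 to 113 ± 6.63 CPM and CBX6 from 71.7 ± 1.37 to 97.2 ± 2.31 CPM, both of Polycomb complex 1. PCGF2, of the same complex and named after its values were seen, had the greatest difference of the list and fell from 71.2 ± 2.89 to 34.5 ± 1.69 CPM (log2 fold change -1.06, edgeR adjusted p = 2.42e-12). JARID2, a partner of Polycomb complex 2, had a log2 fold change of 0.22 (edgeR adjusted p = 0.00589), lost without SEM::mock replicate 1 (edgeR adjusted p = 0.0742). EZH2, the H3K27 methyltransferase of that complex, had a log2 fold change of 0.17 (edgeR adjusted p = 0.0199), which 7 of 13 alternatives lost.

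The last list held factors known to act through elements in HOXB genes, such as retinoid receptors, NF-Y, USF, CDX and CTCF. Of 13 listed, 10 were tested, of which 8 rose, 1 fell and 1 did not pass. Of all tested genes, 36.5% were called higher and 32.0% lower. USF2 rose by a log2 fold change of 0.71 (SE 0.06). CTCF, which binds chromatin boundaries, rose from 45.6 ± 4.90 to 68.9 ± 5.17 CPM and the retinoid partner RXRB from 51.0 ± 2.21 to 64.2 ± 6.17 CPM. RXRA, its close relative, fell from 64.7 ± 4.08 to 53.2 ± 3.15 CPM. None of these lists was linked to the HOXB values by a test.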

How the data were processed

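Deposited MACE-seq counts per gene of 3 SEM::mock and 3 SEM::EGR3 libraries were analysed; replicates are labelled biological. Per the labels, the submitters' processing notes name bcl2fastq, Bowtie2, HTSeq and GRCh38 (versions, strand setting and handling of multiply mapped reads are not given in the sources used here). The authors also deposited CPM, a size-factor normalized signal, and their comparison (log2 fold changes with their p-values). The CPM served for 1 alternative through their totals, and the signal and comparison columns were not used.

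edgeR 4.0.16 (R 4.3.3) was run on the counts with filterByExpr, TMM factors and the quasi-likelihood test, 15465 of 35410 genes being tested; p-values were adjusted by Benjamini-Hochberg. Positions are from GENCODE release 29, which held 97.0% of the identifiers. Replicates differed by more than counting noise. Counts were simulated for 15465 genes with a fixed dispersion and 200 genes changed. Of these, 194 passed the filter and 183 were called, with 9 false calls among unchanged genes. In the real data 68.5% of tested genes were called, so the simulation does not measure the error rate of this comparison.

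All 9 members are named. From each other list at most 4 genes past the threshold with the highest level are named, and from locus and marker lists any gene. The values of a few genes of these lists are not reported here. Members and lists were chosen with earlier results of these data known. Replicate numbers were not treated as pairs. Alternatives were DESeq2 1.42.0, other scalings, filters and thresholds, a replicate block and leaving out each library.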

Additional observations from a re-analysis of the deposited data

How the results depend on the processing

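The 8 tested HOXB genes were called lower under each of the 13 alternatives, with log2 fold changes from -2.11 to -1.94 for HOXB9, from -1.74 to -1.56 for HOXB2 and from -1.98 to -1.46 for HOXB8, the widest range. Over all genes, 4955 were called lower and 5638 higher; adding a log2 fold change of at least 1 left 1315 lower and 2581 higher. Without 1 library these counts ran from 4626 to 4940 and from 5312 to 5570. With a replicate block they were 4694 and 5388, and the HOXB genes called lower were again 8. Deviations of libraries with the same number correlated at -0.17, -0.13 and -0.04 over 13863 genes, so no likeness by number was seen. These deviations are taken from the mean of 3 libraries and depend on each other, so they cannot tell whether a batch was shared. The median log2 fold change over all genes was 0.03, against 0.11 without normalization factors, 0.12 with the totals behind the deposited CPM and 0.22 without a filter. No gene named as risen or fallen changed sign. Of those named without a call, CALCOCO2 (log2 fold change 0.01) and KMT2A (0.01) did so with the totals behind the deposited CPM, and ATP5MC1 gained a call without SEM::mock replicate 1 (edgeR adjusted p = 0.0241). Besides DOT1L, EZH2, HOXC8 and JARID2, calls were lost for PBX2 in 8 alternatives and CBX2 in 6, both named after their values were seen. Depth limits HOXB13, and counts as low as 13 in a library stand behind HOXB6.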

Other observations

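Of 13862 genes with a mean of at least 20 counts, those whose pattern over the 6 libraries was most like that of HOXB9 were ABCG2, GCAT, TLE2, HEBP2 and CYP2S1. Their root mean square difference from HOXB9 on the log2(CPM + 1) scale, each gene centred on its own mean, ran from 0.0548 for ABCG2, an efflux transporter of stem and progenitor cells, to 0.0648 for CYP2S1, a cytochrome P450 gene. The closest other members were HOXB4 (0.239, place 234) and HOXB2 (0.24, place 236). The measure is a description over 6 libraries that share their scaling, and low genes lose range through the added 1.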
